A study of Homo sapiens with 16 samples.

Results

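The 8 genes described here carry cholesterol into the cell or move it between membranes inside it: NPC1, NPC2, STARD3, STARD4, SCARB1, OSBP, LRP5 and SOAT1. They were chosen by name, with earlier results of these data known. They were matched by symbol to the Ensembl identifiers of the count files, and all 8 were found among 54127 identifiers. The libraries came from HT55 and SW948, established human colorectal cancer lines grown as adherent cultures in medium with foetal bovine serum. Each line received itraconazole, an azole antifungal, at 5 µM or the solvent DMSO alone for 6 days. Total RNA was sequenced from 4 groups, the solvent controls and the treated cells of each line, with 4 libraries in each. The question was how each of the 8 genes responded in each line, and whether the lines differed. The study's methods describe the 4 replicates of a group as biological, and the labels say no more about how they were grown.

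Cells take up cholesterol mainly in lipoproteins. Low-density lipoprotein is taken in by endocytosis and broken down in late endosomes and lysosomes, where NPC2 binds the freed cholesterol and hands it to NPC1 for export, while SCARB1 takes cholesterol from high-density lipoprotein at the surface. From there, transfer proteins such as STARD3, STARD4 and OSBP carry sterol between membranes, and SOAT1 turns surplus cholesterol in the endoplasmic reticulum into esters for storage. LRP5 is related to the lipoprotein receptors and is best known as a co-receptor for Wnt ligands. Loss of NPC1 or NPC2 causes Niemann-Pick disease type C, in which cholesterol stays in lysosomes.

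The libraries held 8269406 to 11110814 counts in genes. Levels are given as CPM, the counts per 1000000 gene counts after TMM scaling, which corrects a library's size for its composition. The TMM factor averaged 1.02 and 0.911 in HT55 with DMSO and with itraconazole, and 1.17 and 0.913 in SW948. Without it, on plain library totals, the median log2 fold change over all genes moved from -0.015 to -0.18 in HT55 and from -0.025 to -0.35 in SW948. Calls on plain totals were 2280 up to 4709 down for HT55, against 3340 up to 3213 down with TMM. For SW948 they were 3147 up to 6826 down, against 4865 up to 5165 down with TMM. Epithelial markers were high throughout, with EPCAM at a mean of 1343 to 2235 CPM over the groups, and PTPRC, COL1A2 and VIM had at most 5 counts in any group. COL1A1, a collagen gene, was the other marker outside the epithelium that was measured, at a mean of 0.573 and 0.970 CPM in HT55 with DMSO and with itraconazole and 3.16 and 10.1 CPM in SW948. The share of counts from the mitochondrial genome was higher in the treated groups, with a mean of 2.15% and 2.83% in HT55 and 1.22% and 2.47% in SW948, and its part in the results was not tested. Replicate 3 of treated HT55 lay nearest to its controls. Its profile over 13249 genes lay 0.618 of the way from the control mean to the mean of the other 3 treated libraries. The same measure, each library set against its 3 fellows, was 0.900 to 1.10 for those libraries and 0.838 to 1.08 in treated SW948.

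The promoters of the 4 genes with the largest fold changes are shown, because the results turn on these genes. The sequences are the 250 bases before the transcription start as RefSeq gives it (GRCh38.p14), read 5′ to 3′ along the gene. Capitals mark the GC box GGGCGG and the CCAAT box CCAAT on either strand, so they also appear as CCGCCC and ATTGG, and overlapping copies were counted separately.
NPC1 (chr18:23586507-23586756, minus strand): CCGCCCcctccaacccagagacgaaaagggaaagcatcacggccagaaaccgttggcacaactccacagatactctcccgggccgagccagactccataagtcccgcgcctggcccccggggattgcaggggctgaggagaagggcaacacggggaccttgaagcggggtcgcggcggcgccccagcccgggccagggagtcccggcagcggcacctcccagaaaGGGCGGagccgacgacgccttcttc
NPC2 (chr14:74493513-74493762, minus strand): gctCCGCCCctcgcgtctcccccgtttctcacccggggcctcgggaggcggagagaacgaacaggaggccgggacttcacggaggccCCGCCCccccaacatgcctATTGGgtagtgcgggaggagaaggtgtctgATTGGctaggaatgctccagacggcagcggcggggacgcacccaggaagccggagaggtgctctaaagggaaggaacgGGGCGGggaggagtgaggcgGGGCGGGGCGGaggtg
STARD4 (chr5:111512536-111512785, minus strand): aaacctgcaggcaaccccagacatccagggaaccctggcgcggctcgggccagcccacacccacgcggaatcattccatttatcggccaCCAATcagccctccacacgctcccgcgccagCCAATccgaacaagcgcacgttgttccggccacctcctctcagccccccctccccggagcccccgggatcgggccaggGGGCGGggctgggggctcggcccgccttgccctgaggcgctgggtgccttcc
SOAT1 (chr1:179293547-179293796, plus strand): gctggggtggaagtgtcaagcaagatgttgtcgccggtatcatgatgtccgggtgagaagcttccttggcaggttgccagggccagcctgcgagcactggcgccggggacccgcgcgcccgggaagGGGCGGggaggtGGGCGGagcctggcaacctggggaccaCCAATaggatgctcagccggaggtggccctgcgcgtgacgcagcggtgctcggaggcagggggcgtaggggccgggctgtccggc
A promoter entry was found for 7 of the 8 genes, all but SCARB1. The GC box occurred in all 7, against 42.6% of 35116 promoters of the same length. The CCAAT box occurred in NPC2, STARD4, OSBP and SOAT1, with 2, 2, 5 and 1 copies, against 32% of all promoters. A second RefSeq start of NPC2 had 9 GC boxes and no CCAAT box. Neither the sterol regulatory element TCACNCCAC, held by 0.883% of all promoters, nor the E-box CACGTG, held by 6.34%, was found in these windows. A match is a stretch of letters and not evidence of binding. Only these letters within 250 bases were searched, so their absence does not show that a gene lacks such an element.

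In HT55 all 8 genes rose with itraconazole at an edgeR adjusted p under 0.05, where 27.5% of the 12133 genes tested rose, 26.5% fell and 54.0% passed in either direction. In SW948, 6 of the 8 rose and none fell, where 38.9% of 12505 genes rose, 41.3% fell and 80.2% passed in either direction. OSBP and SOAT1 were the pair that did not pass in SW948. Because the 8 genes were chosen with earlier results known, these counts and shares describe the list and do not test it. The median log2 fold change of the 8 genes was 0.68 in HT55 and 0.80 in SW948, against -0.015 and -0.025 over all genes tested. On plain library totals, 7 rose in HT55, and in SW948 4 rose and 3 fell (SCARB1, OSBP and SOAT1). In HT55 the treated libraries of all 8 genes lay above every control, as for 25.0% of all genes, and in SW948 this held for 6, against 37.3%. Groups that did not overlap in either direction made up 49.4% of all genes in HT55 and 74.7% in SW948. The largest rises were in NPC1, NPC2 and STARD4 in SW948 and in SOAT1 in HT55. A bulk library cannot tell a change in RNA per cell from a change in the mix of cells in the culture.

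**Figure D1:**
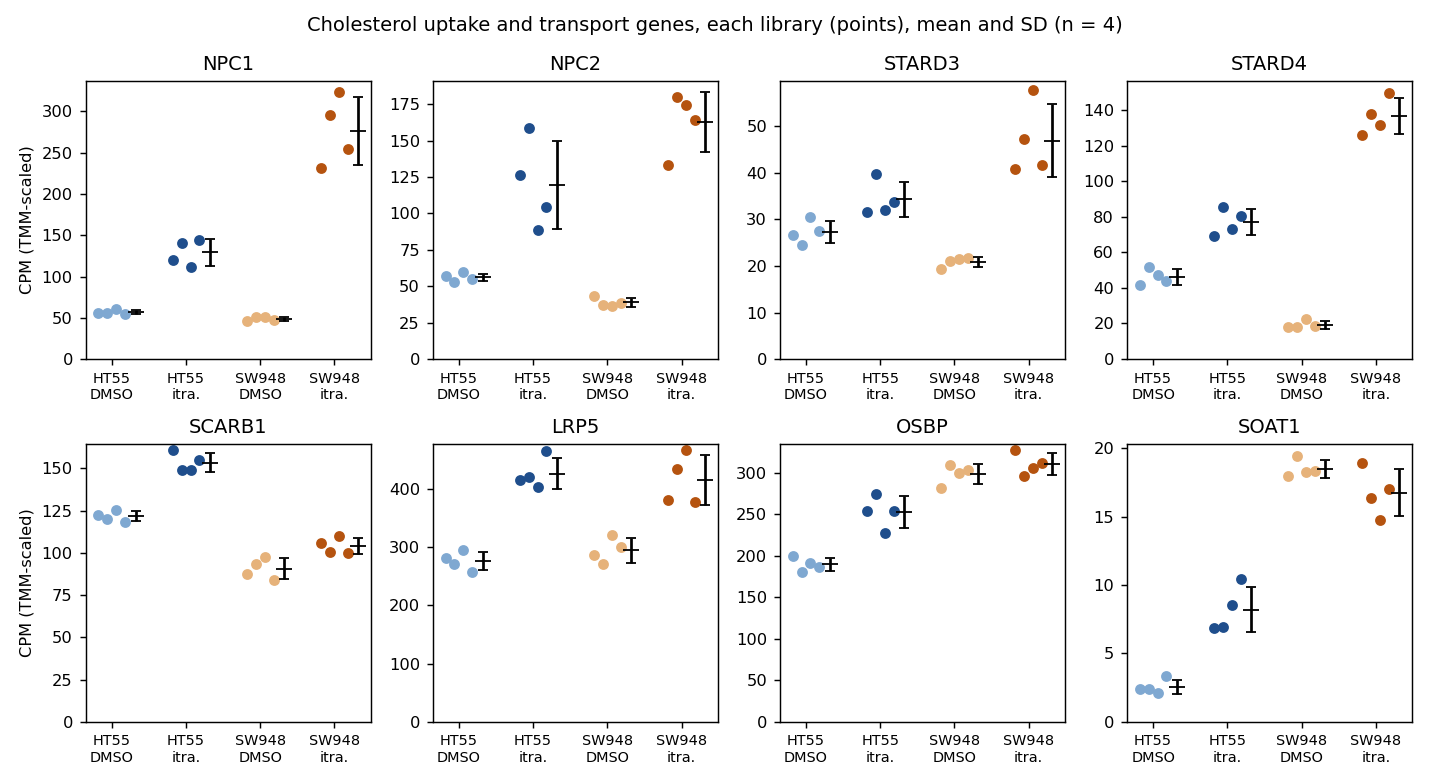
CPM (TMM-scaled, linear axis from 0) of each of the 8 genes in each library, with points for the 4 libraries of a group and a black bar for the mean and SD. Treated libraries lay above the controls of their line in every panel except OSBP and SOAT1 in SW948, where they overlapped, but on plain library totals SCARB1 and OSBP in SW948 changed direction.

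NPC1 and NPC2, the pair that exports cholesterol from the lysosome, rose in both lines. NPC1 (ENSG00000141458, chromosome 18, 21086148 to 21166470, minus strand, GRCh37) is the membrane transporter. It stood at 55.9, 56.2, 60.3 and 54.5 CPM in the 4 HT55 controls and at 120.3, 141, 111 and 144 CPM in the treated libraries. Treated replicate 3 was the lowest of the treated libraries, yet the groups were well apart. In SW948 the controls stood at 45.6, 50.9, 51.3 and 46.96 CPM and the treated libraries at 232, 296, 323 and 255 CPM. All 4 treated SW948 libraries were above every HT55 library, while the SW948 controls were below every HT55 control. That difference between the controls did not pass (edgeR adjusted p = 0.0551). On the log2 scale NPC1 rose by 1.18 ± 0.089 (SE, edgeR adjusted p = 7.62e-06) in HT55, a 2.27-fold rise, and by 2.47 ± 0.10 (SE, edgeR adjusted p = 1.05e-10) in SW948, a 5.55-fold rise. These placed NPC1 at the 95.98 and 98.0 percentile of log2 fold changes over all genes tested in each line. The annotation assigns 6.38% of the exon bases of NPC1 also to RMC1, on the opposite strand.

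NPC2 (ENSG00000119655, chromosome 14, 74942895 to 74960880, minus strand) encodes the soluble protein that binds cholesterol in the lysosome lumen. Its HT55 controls stood at 56.8, 53.3, 59.5 and 54.7 CPM and the treated libraries at 126, 159, 88.98 and 105 CPM. The treated values were widely spread, from replicate 3 at the bottom to replicate 2 at the top, and none reached down to a control. In SW948 it stood at 43.4, 37.4, 36.5 and 38.8 CPM in controls and at 133, 179.8, 174 and 164 CPM in treated libraries, again without overlap. Its log2 fold change was 1.09 ± 0.15 (SE, edgeR adjusted p = 0.000219) in HT55 and 2.03 ± 0.097 (SE, edgeR adjusted p = 3.83e-10) in SW948, or 2.13-fold and 4.07-fold. Leaving out each library in turn kept the HT55 value between 0.92 and 1.22, with the highest value without treated replicate 3.

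STARD3 (ENSG00000131748, chromosome 17, 37793343 to 37820454, plus strand) encodes a late endosomal protein that tethers endosomes to the endoplasmic reticulum and passes sterol across the contact. It stood at 26.6, 24.6, 30.4 and 27.5 CPM in HT55 controls and 31.7, 39.9, 31.9 and 33.8 CPM in treated HT55. The groups did not overlap, but the highest control (replicate 3) was close to the lowest treated library (replicate 1). In SW948 the controls held 19.4, 21.2, 21.4 and 21.7 CPM and the treated libraries 40.8, 47.3, 57.8 and 41.7 CPM, and every treated library was far above the controls. The log2 fold change in HT55 was 0.33 ± 0.10 (SE, edgeR adjusted p = 0.0193). That call was lost without HT55 control replicate 2 (log2 fold change 0.29, edgeR adjusted p = 0.0567), as it was on plain library totals (0.16, edgeR adjusted p = 0.171). In SW948 the value was 1.13 ± 0.11 (SE, edgeR adjusted p = 3.64e-07), a 2.19-fold rise.

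STARD3 lies beside ERBB2 on chromosome 17, and its 7 neighbours there were listed beside it. In HT55, 5 of them were tested: ERBB2 (0.37) and GRB7 (0.30) rose, PGAP3 (-0.41) fell, and PPP1R1B and MIEN1 did not pass (log2 fold changes, edgeR). In SW948, 6 were tested. GRB7 (1.63), MIEN1 (0.53) and TCAP rose, and PGAP3 (-1.52), PPP1R1B (-0.81) and ERBB2 (-0.51) fell. The shares of all genes that rose and fell were 27.5% and 26.5% in HT55 and 38.9% and 41.3% in SW948.

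STARD4 (ENSG00000164211, chromosome 5, 110831731 to 110848288, minus strand) encodes a small soluble carrier that shuttles cholesterol between the plasma membrane, endosomes and the endoplasmic reticulum. Its controls stood at 41.5, 51.8, 47.4 and 43.96 CPM in HT55 and its treated libraries at 69.2, 85.6, 73.4 and 80.3 CPM. The lowest treated library was above the highest control. SW948 began lower, at 18.2, 17.8, 22.3 and 18.4 CPM, and ended higher, at 126, 138, 132 and 149.7 CPM. Control replicate 3 was the highest of the SW948 controls and stood apart from the other 3, which differed by less than 1 CPM. For STARD4 the log2 fold change was 0.73 ± 0.092 (SE, edgeR adjusted p = 0.000122) in HT55 and 2.80 ± 0.086 (SE, edgeR adjusted p = 1.93e-11) in SW948, which is 1.66-fold against 6.95-fold. The SW948 rise was the largest of the 8 genes in either line and lay at the 98.7 percentile of all genes tested there. Without control replicate 3 it was 2.87. STARD4 shares 2.18% of its exon bases with the antisense gene STARD4-AS1.

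OSBP (ENSG00000110048, chromosome 11, 59341871 to 59383247, minus strand) encodes oxysterol-binding protein, which moves cholesterol from the endoplasmic reticulum to the Golgi in exchange for phosphatidylinositol 4-phosphate. In HT55 it stood at 199.7, 181, 191 and 186 CPM in controls and 254, 274, 227 and 254 CPM in treated libraries, with no overlap. Treated replicate 3 was again the lowest treated library. In SW948 the controls held 281, 309, 299.9 and 303 CPM and the treated libraries 327, 296, 305 and 312 CPM, and the 2 groups overlapped. The log2 fold change was 0.41 ± 0.069 (SE, edgeR adjusted p = 0.000727) in HT55. In SW948 it was 0.024 ± 0.060 (SE, edgeR adjusted p = 0.719), with an interval of -0.096 to 0.14 (2 SE each way), but it was -0.30 and passed as a fall on plain library totals (edgeR adjusted p = 0.000822). Of the exon bases of OSBP, 2.3% belong also to an unnamed gene, as 3.99% of those of NPC2 do to ISCA2.

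At the cell surface, SCARB1 and LRP5 had the smallest rises of the 6 genes that rose in SW948. SCARB1 (ENSG00000073060, chromosome 12, 125261402 to 125367214, minus strand), the receptor for high-density lipoprotein, stood at 122, 120.3, 126 and 118 CPM in HT55 controls and 161, 149, 149 and 155 CPM in treated HT55. Its SW948 controls stood at 87.7, 93.6, 97.4 and 83.9 CPM and the treated libraries at 106, 101, 110.1 and 99.8 CPM. The groups were separate in both lines, but in SW948 the gap was narrow, from control replicate 3 to treated replicate 4. The log2 fold change was 0.33 ± 0.055 (SE, edgeR adjusted p = 0.000681) in HT55. In SW948 it was 0.17 ± 0.066 (SE, edgeR adjusted p = 0.0321), but it turned to -0.16 on plain library totals (edgeR adjusted p = 0.0445). The SW948 call was also lost without control replicate 1 (0.15, edgeR adjusted p = 0.0925), control replicate 4 (0.13, edgeR adjusted p = 0.129) or treated replicate 3 (0.14, edgeR adjusted p = 0.0716).

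LRP5 (ENSG00000162337, chromosome 11, 68080059 to 68216743, plus strand) had the highest count of the 8 genes in HT55. Its level was 282, 271, 295 and 257 CPM in HT55 controls and 415, 422, 404 and 466 CPM with itraconazole. The SW948 controls stood at 287, 271, 321 and 300.02 CPM and the treated libraries at 382, 435, 468 and 378 CPM. Treated and control libraries did not overlap in either line, and the control ranges of the lines overlapped. On the log2 scale LRP5 rose by 0.62 ± 0.069 (SE, edgeR adjusted p = 5.76e-05) in HT55 and by 0.46 ± 0.081 (SE, edgeR adjusted p = 0.000116) in SW948. The SW948 value was 0.13 on plain library totals and did not pass (edgeR adjusted p = 0.0930). LRP5L, annotated as a transcribed unprocessed pseudogene, could share reads with LRP5 and was much lower. In HT55 it summed to 49 counts with DMSO and 11 with itraconazole (exact permutation p = 0.0286 on plain library totals, two-sided, the smallest this design gives). In SW948 it rose from 131 to 191 counts, with 0.99 ± 0.24 (SE, edgeR adjusted p = 0.00191) on the log2 scale.

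SOAT1 (ENSG00000057252, chromosome 1, 179262849 to 179327815, plus strand), the enzyme that esterifies cholesterol in the endoplasmic reticulum, was the gene of the 8 in which the lines differed most before treatment. HT55 controls held only 2.38, 2.36, 2.12 and 3.32 CPM, which is 20 to 28 counts per library, and treated HT55 held 6.88, 6.96, 8.56 and 10.4 CPM, or 58 to 90 counts. Every treated library was above every control. In SW948 the controls stood at 17.96, 19.5, 18.3 and 18.3 CPM and the treated libraries at 18.9, 16.4, 14.7 and 17.05 CPM, where treated replicate 1 lay within the range of the controls and the other 3 below it. Its log2 fold change was 1.69 ± 0.20 (SE, edgeR adjusted p = 9.90e-05) in HT55, a 3.22-fold rise and the largest of the 8 there. In SW948 it was -0.17 ± 0.098 (SE, edgeR adjusted p = 0.123), with an interval of -0.36 to 0.025 (2 SE each way). That value passed as a fall without treated replicate 1 (-0.22, edgeR adjusted p = 0.0472), as it did on plain library totals (-0.50, edgeR adjusted p = 0.00125). SOAT2, the second enzyme that esterifies cholesterol, had 1 count in all 16 libraries together, so its change was not detectable at this depth.

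**Figure D2:**
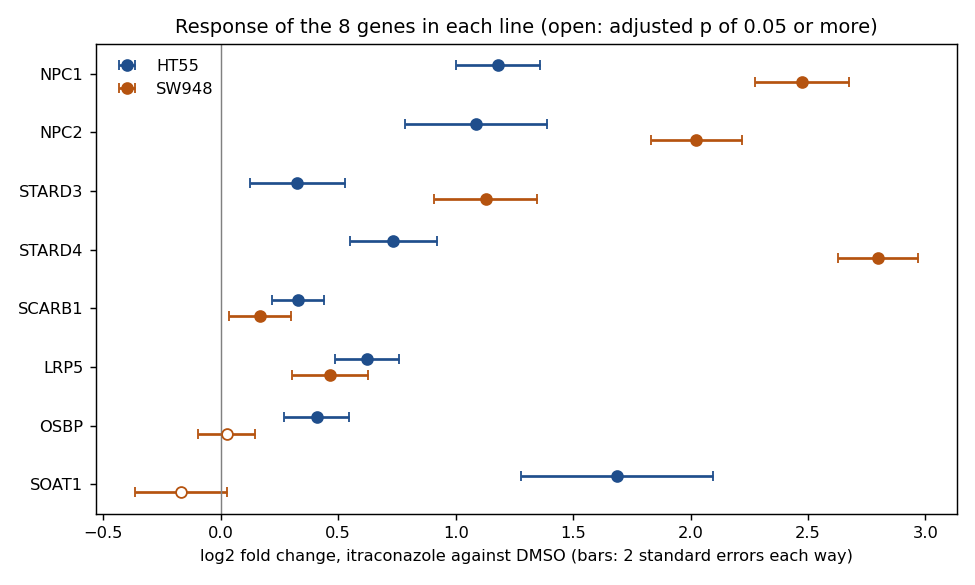
Log2 fold change of itraconazole against DMSO for the 8 genes in HT55 (blue) and SW948 (orange), with bars of 2 SE each way, filled where the edgeR adjusted p was under 0.05. NPC1, NPC2, STARD3 and STARD4 lay further right in SW948, SOAT1 and OSBP further right in HT55, and the small SW948 values of SCARB1 and OSBP became negative on plain library totals.

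Whether the lines responded differently was tested with the interaction of line and drug in all 16 libraries, given as the SW948 log2 fold change minus that of HT55. Of the 8 genes, 4 had a larger log2 fold change in SW948 and 2 a smaller one, where 24.8% and 29.1% of 13249 genes passed in those directions and 53.9% in either. STARD4 had the largest difference, 2.09 ± 0.13 (SE, edgeR adjusted p = 1.00e-09). NPC1 followed with 1.32 ± 0.14 (SE, edgeR adjusted p = 3.72e-07), NPC2 with 0.97 ± 0.19 (SE, edgeR adjusted p = 0.000254) and STARD3 with 0.83 ± 0.16 (SE, edgeR adjusted p = 0.000175). These are the lysosomal exporters and the START-domain carriers, which all rose in both lines. SOAT1 went the other way with -1.83 ± 0.21 (SE, edgeR adjusted p = 1.08e-06), and OSBP with -0.36 ± 0.092 (SE, edgeR adjusted p = 0.00288). For the surface receptors no difference passed: it was -0.13 ± 0.087 (SE, edgeR adjusted p = 0.204) for SCARB1, with an interval of -0.31 to 0.040, and -0.13 ± 0.11 (SE, edgeR adjusted p = 0.333) for LRP5, with an interval of -0.35 to 0.092. On plain library totals both passed, at -0.33 for each (edgeR adjusted p = 0.00543 and 0.00809).

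The levels were then compared between the lines within each condition, in the same fit of 16 libraries. These contrasts use the same libraries as the treatment comparisons and are no separate evidence. With DMSO, 2 of the 8 genes were higher in SW948 and 4 lower, where 38.2% and 37.7% of all genes passed in those directions and 75.9% in either. SOAT1 was 7.28-fold higher in SW948, at 2.86 ± 0.16 (SE, edgeR adjusted p = 2.80e-12) on the log2 scale, and OSBP 1.57-fold higher, at 0.66 ± 0.065 (SE, edgeR adjusted p = 1.96e-08). STARD4 was the gene furthest below HT55, at -1.27 ± 0.097 (SE, edgeR adjusted p = 3.71e-10). NPC2, SCARB1 and STARD3 were lower by smaller amounts, at -0.52, -0.43 and -0.38, and STARD3 did not pass on plain library totals (-0.18, edgeR adjusted p = 0.0990). NPC1 (-0.22, edgeR adjusted p = 0.0551) and LRP5 (0.093, edgeR adjusted p = 0.290) did not pass, although LRP5 did on plain library totals (0.29, edgeR adjusted p = 0.000872). NPC1 did without HT55 treated replicate 3, SW948 treated replicate 1 or SW948 treated replicate 3, at -0.21, -0.21 and -0.22. On plain library totals the NPC1 difference was -0.026 (edgeR adjusted p = 0.791), and with DESeq2 it was -0.22 (DESeq2 Wald adjusted p = 0.0879).

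With itraconazole, 6 of the 8 were higher in SW948 and 1 lower, against 39.3% and 41.5% of all genes, with 80.8% in either direction. NPC1 was 2.14-fold higher there, at 1.10 ± 0.097 (SE, edgeR adjusted p = 2.65e-09) on the log2 scale. SOAT1 remained higher, with 1.03 ± 0.14 (SE, edgeR adjusted p = 9.04e-07), though by less than with DMSO. STARD4, which was lower in SW948 with DMSO, was higher with itraconazole, at 0.82 ± 0.088 (SE, edgeR adjusted p = 4.11e-08). NPC2, STARD3 and OSBP were higher by 0.44, 0.45 and 0.30. SCARB1 was lower, with -0.56 ± 0.062 (SE, edgeR adjusted p = 6.88e-08). LRP5 had a difference of -0.038 ± 0.079 (SE, edgeR adjusted p = 0.663), with an interval of -0.20 to 0.12.

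To compare levels between genes, CPM was divided by the length in kb of all annotated exons of a gene, joined over its transcripts. That length ran from 2584 bp for NPC2 to 14887 bp for SCARB1. Which transcripts the cells held was not measured, so the order between genes depends on this choice of length. On this scale LRP5, OSBP and NPC2 were the 3 highest of the 8 genes in every group, and SOAT1 the lowest. In HT55 controls LRP5 stood at 44.7 ± 2.60 CPM per kb (SD, n = 4), OSBP at 36.99 ± 1.57 and NPC2 at 21.7 ± 1.04, each apart from the next. SCARB1 (8.18 ± 0.206) and STARD4 (8.12 ± 0.785) followed and overlapped in range, then NPC1 (5.85 ± 0.258), STARD3 (4.66 ± 0.415) and SOAT1 (0.363 ± 0.0754). In treated HT55 the level of NPC2 (46.3 ± 11.7) reached the range of OSBP (49.3 ± 3.80), and NPC1 (13.3 ± 1.66) that of STARD4 (13.6 ± 1.28), both above SCARB1 (10.3 ± 0.381).

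In SW948 controls OSBP led with 58.3 ± 2.39 CPM per kb (SD, n = 4), ahead of LRP5 at 47.7 ± 3.46 and NPC2 at 15.1 ± 1.18. Below them came SCARB1 (6.09 ± 0.404), NPC1 (5.02 ± 0.290), STARD3 (3.58 ± 0.178) and STARD4 (3.37 ± 0.370), of which only STARD3 and STARD4 overlapped, and then SOAT1 (2.64 ± 0.0943). In treated SW948 the ranges of LRP5 (67.2 ± 6.98), NPC2 (63.0 ± 8.04) and OSBP (60.6 ± 2.55) overlapped from each to the next. NPC1 (28.5 ± 4.21) and STARD4 (24.0 ± 1.78) formed the next level, which had been among the lower ones in the controls. STARD3 (8.01 ± 1.34) and SCARB1 (6.99 ± 0.323) overlapped, and SOAT1 (2.39 ± 0.246) was last.

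**Figure D3:**
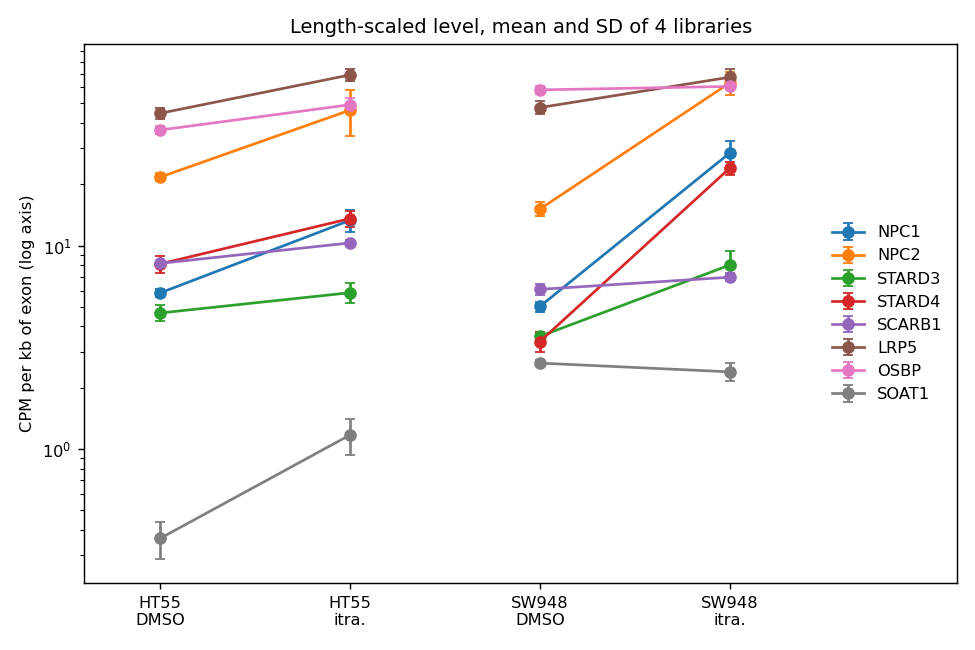
CPM per kb of exon (log axis) of the 8 genes in the 4 groups, as the mean and SD of 4 libraries, with a line from DMSO to itraconazole within each line. NPC2 rose from 15.1 to 63.0 CPM per kb in SW948 and joined LRP5 and OSBP, and SOAT1 was the lowest gene in every group. The order between genes depends on the length used, that of all annotated exons.

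The 8 genes were set beside 49 other genes of sterol uptake and transport, also listed with earlier results known, so the counts are a description. In HT55, 41 of the 49 could be tested, of which 25 rose, 3 fell and 13 did not pass, with a median log2 fold change of 0.34, where 27.5% of all genes rose and 26.5% fell. In SW948, 43 were tested, of which 24 rose, 12 fell and 7 did not pass, with a median of 0.33, where 38.9% of all genes rose and 41.3% fell. On plain library totals the split was 21 rises and 4 falls in HT55 and 16 and 16 in SW948. Among the 13 uptake receptors and their regulators, 12 were tested in each line, and 10 rose in HT55 and 8 in SW948, with 1 fall in each. All 9 late endosomal and lysosomal genes were tested. HT55 had 5 rises and 1 fall among them, and SW948 4 rises and 5 falls, close to the split of all genes there. Among 21 genes of transfer at contact sites, 9 rose and 1 fell of 16 tested in HT55, and 9 rose and 5 fell of 18 in SW948. Of 6 genes of ester formation and release, 4 were tested in each line. NCEH1, a cholesterol ester hydrolase, was the 1 that rose in HT55. In SW948, 3 of the 4 rose, NCEH1 among them, and the remaining 1 fell.

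Among the uptake genes, 3 are given by value. MYLIP, a ubiquitin ligase that acts on lipoprotein receptors, had log2 fold changes of 0.90 (HT55) and 0.51 (SW948), with edgeR adjusted p-values of 0.000645 and 0.000119. Its SW948 call was lost on plain library totals (0.18). NPC1L1, the intestinal importer of dietary sterol and a relative of NPC1, rose by 1.43 in HT55 from 35 to 92 counts over 4 libraries. In SW948 it had 3 counts with DMSO and 182 with itraconazole, a ratio of 83.7 (95% exact interval 28.2 to 409.6, counting error only). VLDLR, a lipoprotein receptor, had log2 fold changes of -1.17 (HT55) and -0.42 (SW948), with edgeR adjusted p-values of 0.000190 and 0.1000. Its SW948 value passed as a fall on plain library totals (-0.75, edgeR adjusted p = 0.00929).

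Of the genes that act inside the cell, LIPA, the acid lipase that frees cholesterol from lipoprotein esters ahead of NPC2, had log2 fold changes of 0.15 (HT55) and -0.46 (SW948), with edgeR adjusted p-values of 0.330 and 0.000254. SLC38A9, a lysosomal amino acid transporter that senses cholesterol together with NPC1, had log2 fold changes of -0.60 (HT55) and -1.07 (SW948), with edgeR adjusted p-values of 0.0144 and 2.05e-06. In HT55 its treated replicate 3 (21.58 CPM) lay within the control range (21.56 to 24.56 CPM). Leaving out each HT55 library in turn gave -0.82 to -0.49, and all 8 fits passed. The GRAMD1 proteins carry cholesterol from the plasma membrane to the endoplasmic reticulum. GRAMD1A had log2 fold changes of 0.58 (HT55) and 1.71 (SW948), with edgeR adjusted p-values of 0.00236 and 2.34e-08. GRAMD1C had log2 fold changes of 1.84 (HT55) and 0.45 (SW948), with edgeR adjusted p-values of 5.79e-05 and 0.0275. The SW948 value of GRAMD1C was 0.13 on plain library totals and lost its call there and in 5 of 8 fits that each left out 1 library, at 0.31 without treated replicate 1, 0.36 without treated replicate 4, and 0.43 to 0.44 without control replicate 1, 3 or 4. GRAMD1B fell in SW948, by 1.73 on the log2 scale (edgeR adjusted p = 9.23e-05), and was below the count filter in HT55, at 18 and 35 counts (two-sided exact permutation p = 0.114). PI4KA, 1 of the kinases that make phosphatidylinositol 4-phosphate, had log2 fold changes of -0.26 (HT55) and -1.12 (SW948), with edgeR adjusted p-values of 0.227 and 9.52e-09. Its HT55 value passed without treated replicate 3 (-0.48, edgeR adjusted p = 0.00105).

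**Figure D4:**
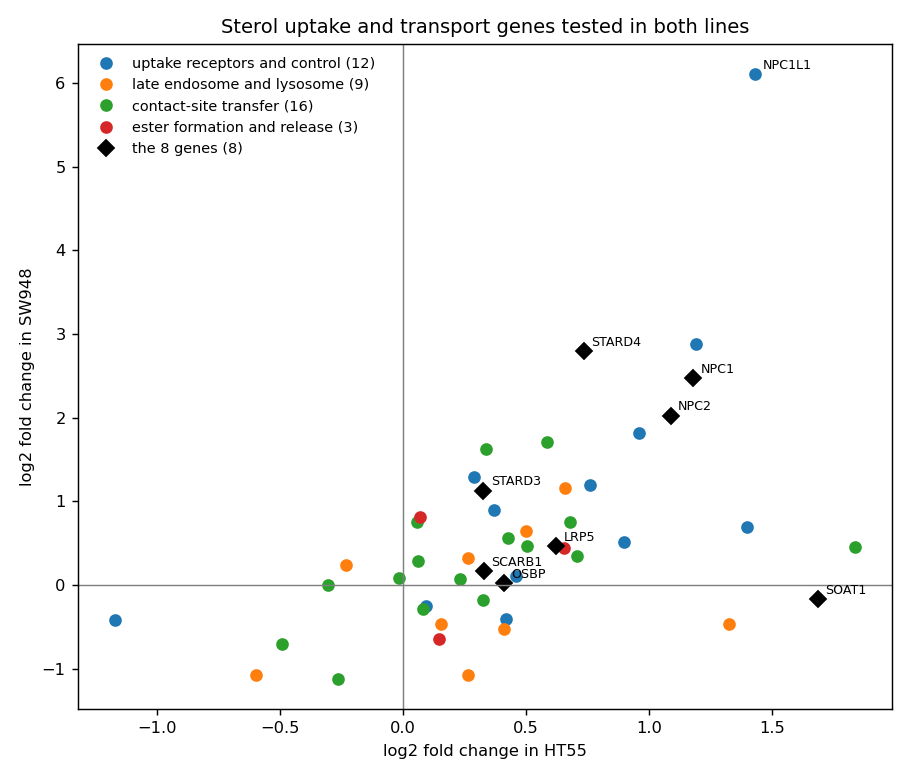
Log2 fold change in HT55 (horizontal) and SW948 (vertical) of the 8 genes (black diamonds) and of the listed sterol genes tested in both lines, coloured by list. Names are given to the 8 genes and to NPC1L1, which at the top rests on 3 control counts in SW948, and SOAT1 stood alone among the 8 in its large rise in HT55 and value below 0 in SW948.

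For each of the 8 genes, the genes with the most similar profile were found by the root mean square difference in log2 CPM over the 16 libraries, each gene centred on its own mean, among 9225 candidates. This is a description, and the libraries of a group share their condition. STARD4 was closest to TRIP10 (0.198) and CYP51A1 (0.200), where the median candidate differed by 1.12. CYP51A1 encodes lanosterol demethylase, an enzyme of cholesterol synthesis. NPC1 was closest to SLC17A5 (0.137), which encodes the lysosomal sialic acid exporter, then to SEC24A and WBP2. NPC2 was closest to MEF2D (0.119), GALNT3 and MSL1. STARD3 was closest to PI4K2A (0.101), a phosphatidylinositol kinase of endosomes and the Golgi, then to DAZAP2 and BTBD1. SOAT1 had the most distant first match, TP53INP1 (0.220), followed by LGR4 and REPS2. The genes that changed least had smaller distances: NELFB for SCARB1 (0.0800), DERL1 for OSBP (0.0792) and P4HB for LRP5 (0.0876). Their median candidates also differed less, by 0.524, 0.529 and 0.531. For the rest of the 8 genes that median ran from 0.618 (STARD3) to 1.20 (SOAT1), so the distances do not rank the closeness of matches between genes. The remaining matches were OTUD4 and DHX8 for SCARB1, PDIA6 and MTDH for OSBP, and MYO9B and WASL for LRP5.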

How the data were processed

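RNA of 16 libraries was sequenced as single-end reads of 50 bp. The authors aligned the reads to hg19 and deposited the raw counts of reads in each gene. The submitters' processing notes name TopHat, HTSeq and DESeq, and the annotation release and strand setting are not given in the sources used here. Reads with more than 1 alignment (22.0% to 27.9% of the sum of all rows), in no gene (3.79% to 4.94%) or ambiguous (1.23% to 1.48%) were left out.

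Symbols came from a separate list of gene names, and GRCh37 coordinates and exons from a GENCODE annotation. In R 4.3.3, edgeR 4.0.16 (quasi-likelihood test, TMM, filterByExpr, Benjamini-Hochberg over all genes) was fitted on the 8 libraries of a line for treatment, and on all 16 for the interaction and the line contrasts. The SE was the log2 fold change over the square root of F. CPM used TMM-scaled sizes of all 16 libraries. Genes under the filter with at least 10 counts had an exact permutation test, on counts scaled by plain library totals without TMM. Named were the 8 genes, the pathway lists (with the 2 largest rises and falls per line and 8 preset genes valued), STARD3 neighbours, LRP5L and 3 similar genes each whose log2 CPM averaged 3 or more (prior count 2). Some genes named by this rule are not reported here. Members and lists were chosen with earlier results of these data known. Alternatives were DESeq2 1.42.0 and its size factors, plain totals, other filters, no abundant genes, a replicate block, 1 fit of 16 libraries and leaving out libraries. No replicate pair agreed within sampling noise (chi-square per degree of freedom 1.46 to 43.4). No batch is labelled. Intervals of counts cover counting error only.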

Additional observations from a re-analysis of the deposited data

Results flagged for a closer look

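STARD4 in the SW948 controls had 1 library far from the others. Replicate 3 lay at a gap of 0.861 of the group's range from its neighbour, beyond the 95% critical value of Dixon's test for 4 values. This was 1 of 32 groups examined, where chance gives about 1 in 20, or 1.6 here.

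For 6 genes the response differed between the lines by the interaction test in edgeR. The log2 fold change in SW948 minus that in HT55 was 1.322 for NPC1, 0.9664 for NPC2, 0.8309 for STARD3 and 2.092 for STARD4. It was -0.3561 for OSBP and -1.83 for SOAT1. All 6 also passed in each of the 16 fits that left out 1 library.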

How the results depend on the processing

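The scaling of the libraries mattered most. On plain library totals SCARB1 in SW948 turned to -0.164 (edgeR adjusted p = 0.0445) and OSBP to -0.304 (edgeR adjusted p = 0.000822), which follows from the shift of all genes given above. The interaction split was then 2295 to 4929 genes instead of 3292 to 3849, and the DMSO line contrast 6134 to 3919 instead of 5059 to 4996. SCARB1 in SW948 also lost its call with no count filter (0.14, edgeR adjusted p = 0.132) and with at least 10 counts in every library (0.13, edgeR adjusted p = 0.0914), and the cause was not tested. NPC1 with DMSO passed as lower in SW948 with no count filter (-0.21, edgeR adjusted p = 0.04998) and in 3 of 16 fits that each left out 1 library (HT55 treated replicate 3, SW948 treated replicate 1 or 3; edgeR adjusted p = 0.0407 to 0.0442). The same NPC1 difference was -0.026 on plain library totals and did not pass (edgeR adjusted p = 0.791). No count of called genes or members, rises and falls summed, moved by more than 1.5 times in the alternatives run. By direction, plain library totals took the SW948 rises from 4865 to 3147 genes, the falls among the 8 genes in SW948 from 0 to 3, and those with a smaller response in SW948 by the interaction from 2 to 4. Leaving out each library gave 7 to 8 of the 8 genes in HT55 and 5 to 7 in SW948. All groups use the same replicate numbers, and same-numbered libraries deviated together only weakly (correlations of -0.025 to 0.12 in HT55 and -0.0035 to 0.10 in SW948). The mean was 0.027 in HT55 and 0.046 in SW948, against -0.0089 and -0.015 for libraries of different numbers. Replicate 3 had the highest value in each line, at 0.12 and 0.10. Its control reached at most 0.018 and 0.028 with treated libraries of other numbers. A replicate block gave 6300 genes in HT55 and 9973 in SW948, and 8 and 6 of the 8 genes. Among the 8 genes it changed 1 call, that of NPC1 with DMSO (-0.22, edgeR adjusted p = 0.0448). The 3 most similar genes of each gene were the same with a prior count of 0.5 and on plain totals. With 4 libraries a group and SOAT1 at 20 to 28 counts per HT55 control, small changes of low genes were limited by depth.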

Other observations

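Ratios of counts within a library cannot be changed by its scaling. The 3 ratios given here were chosen after the values had been seen, and 6 comparisons were made with two-sided exact permutation tests, for which the smallest p is 0.0286. The count of NPC1 over that of NPC2 went from 1.01 ± 0.0313 to 1.12 ± 0.234 in HT55 (SD, n = 4; exact p = 0.486, adjusted 0.486) and from 1.26 ± 0.159 to 1.70 ± 0.127 in SW948 (SD, n = 4; exact p = 0.0286, adjusted 0.0429). As the ratios were picked from these same values, the p-values describe them and do not test whether the pair rose by unequal amounts. STARD4 over STARD3 went from 1.71 ± 0.269 to 2.25 ± 0.106 in HT55 and from 0.916 ± 0.0941 to 2.97 ± 0.542 in SW948, and in both lines all 4 treated libraries were above all 4 controls (SD, n = 4; exact p = 0.0286, adjusted 0.0429 for each). SOAT1 over NPC1, the esterifying enzyme over the lysosomal exporter, went from 0.0452 ± 0.0110 to 0.0640 ± 0.0129 in HT55 (SD, n = 4; exact p = 0.0857, adjusted 0.103). In SW948 it went from 0.381 ± 0.0166 to 0.0623 ± 0.0155 (SD, n = 4; exact p = 0.0286, adjusted 0.0429). The lines differed about this ratio with DMSO and came to similar values with itraconazole, a comparison for which no test was made.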
